A study of Mus musculus with 12 samples.

Results

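The GDNF-RET signalling pathway was followed through 6 genes, the ligand *Gdnf*, the receptor *Ret*, its co-receptor *Gfra1*, the transcription factors *Etv4* and *Etv5*, and the feedback inhibitor *Spry1*. The members were taken by gene symbol from the count tables, and each of the 6 had a row among the 24062 genes counted in every kidney. All 6 passed the filter on low counts in each comparison, with between 16 and 13516 counts per kidney.

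GDNF is secreted by the cap mesenchyme, the nephron progenitor cells that surround the tips of the branching ureteric bud. It binds GFRA1, which is anchored to the membrane without an intracellular domain, and the receptor tyrosine kinase RET, both carried by the tip cells. RET signalling raises the ETS-family transcription factors ETV4 and ETV5 in the tip. It is limited by SPRY1, an inhibitor of the RAS-ERK cascade that is itself induced by the signal. Which cells of the whole kidneys the RNA of each member came from was not tested.

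RNA from whole kidneys of mice at postnatal day 3 was sequenced in 4 groups of 3 kidneys, from 2 litters per group. Kidneys 1 and 2 of each group came from litter 1 and kidney 3 from litter 2. The LIN28B Wt1 kidneys, labelled LIN28OE, were from C57BL/6 mice that carried human *LIN28B* behind a doxycycline-responsive promoter at the *Col1a1* locus, a lox-STOP-lox rtTA allele and *Wt1-Cre*, and had been exposed to doxycycline for 1 day before birth. Expression of the transgene was therefore limited to cells with a history of *Wt1* expression, among them the cap mesenchyme, the stroma and the nephrons. Their controls were littermates of the same strain, whose doxycycline exposure and transgene alleles the labels do not give. The let-7 KO kidneys lacked *let-7a1*, *let-7d* and *let-7f1* in every cell, and these mice and their WT littermates were of a mixed CD1 and C57BL/6 background. No separate animal was named for each kidney in the labels, so p-values measure the spread between these kidneys.

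The kidneys held between 39926235 and 61872736 counts each. A total of 3 counts, the limit that a count of 0 allows, corresponded to between 0.0485 and 0.0751 CPM, counts scaled by library size. These limits cover counting error only, since reads carried no molecular identifiers. LIN28B Wt1 kidney 3 stood apart from the other 2 kidneys of its group, at a chi-square per gene of 237.3 and 227.1, against 60.5 between kidneys 1 and 2, and it had the highest level of its group for all 6 members. Kidneys of the let-7 groups differed by between 92.6 and 239.1 on this measure. The transgene could not be checked directly, because the tables hold no row for human *LIN28B*. The mouse *Lin28b* row held 232, 224 and 71 counts in the LIN28B Wt1 kidneys and 0, 18 and 33 in their controls, and whether it took up reads of the human transcript was not tested. The rows of the 3 deleted let-7 genes held 0 counts in all 3 let-7 KO kidneys, but let-7 WT kidney 1 also had 0 counts in all 3 rows, and these libraries do not measure mature miRNAs. Of the 9 kidney markers checked (*Pax2*, *Pax8*, *Cdh16*, *Umod*, *Nphs1*, *Slc12a1*, *Slc12a3*, *Aqp2* and *Lrp2*), all 9 were tested in both models, and their summed level was between 1860 and 2613 CPM in LIN28B Wt1 kidneys and between 3160 and 3414 CPM in their controls, without overlap, and between 3662 and 4605 CPM in let-7 KO against between 3209 and 4541 CPM in let-7 WT kidneys.

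The mature miRNAs of the deleted genes are shown because a loss of let-7 acts first on transcripts that pair with their seed. RefSeq places all 3 on the minus strand of chromosome 13 (GRCm38.p6), let-7a-5p at chr13:48538239-48538260, let-7d-5p at chr13:48536078-48536099 and let-7f-5p at chr13:48537889-48537910. Capitals mark the seed, bases 2 to 8.
let-7a-5p: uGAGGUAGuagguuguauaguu
let-7d-5p: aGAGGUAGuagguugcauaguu
let-7f-5p: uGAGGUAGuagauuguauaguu
The 3 miRNAs share 1 seed, which 8 other let-7 loci in the RefSeq table, not deleted here, also carry. LIN28B, in turn, blocks the maturation of let-7 precursors.

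None of the 6 members carried a match to that seed in its longest annotated 3′ UTR. The letters searched on the transcript strand were CTACCTC, the complement of the seed, and TACCTCA, which lacks the first of those bases and ends in A, so that the 2 overlap by 6 bases. The 3′ UTRs searched were between 624 bases (*Etv4*) and 2787 bases (*Gfra1*) long, and that of *Gdnf* was 2743 bases (GENCODE M21). Across 14841 genes, with a median 3′ UTR of 1119 bases, 10.3% held CTACCTC, 10.7% held TACCTCA and 16.4% held either. The absence says only that these letters are not in these windows. Promoter windows, from 250 bases before to 50 bases after a transcript start, were given by RefSeq for *Gdnf* (2 windows), *Etv5* (2), *Gfra1* (1) and *Spry1* (1). The ETS-type motif CCGGAAGT, searched on both strands, was found in none of these 6 windows, against 3.89% of all 32851 windows. Its core GGAAGT had 2 matches, both in 1 window of *Etv5*, against 23.8% of all windows with at least 1 match.

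The members differed widely in level. On a scale of counts per kilobase of the longest annotated transcript, set to the same sum in each kidney as CPM, *Spry1* was the highest member in all 4 groups, with 180.6 ± 38.8 in the LIN28B controls (SD, n = 3). *Etv5* (40.3 ± 6.67), *Etv4* (33.2 ± 1.19) and *Gfra1* (25.2 to 38.6) followed on this scale with overlapping ranges. The ligand and its receptor were the lowest, *Ret* at 5.31 ± 2.77 and *Gdnf* at 2.55 ± 0.764, and their ranges overlapped. *Gdnf* stayed the lowest member by mean in the LIN28B Wt1 (10.7 ± 4.67) and let-7 WT kidneys (0.785 ± 0.233), while in the let-7 KO kidneys its mean (3.07 ± 1.06) was above that of *Ret* (2.04 ± 2.72) with overlapping ranges. All further levels are in CPM and compare kidneys, not genes.

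**Figure D1:**
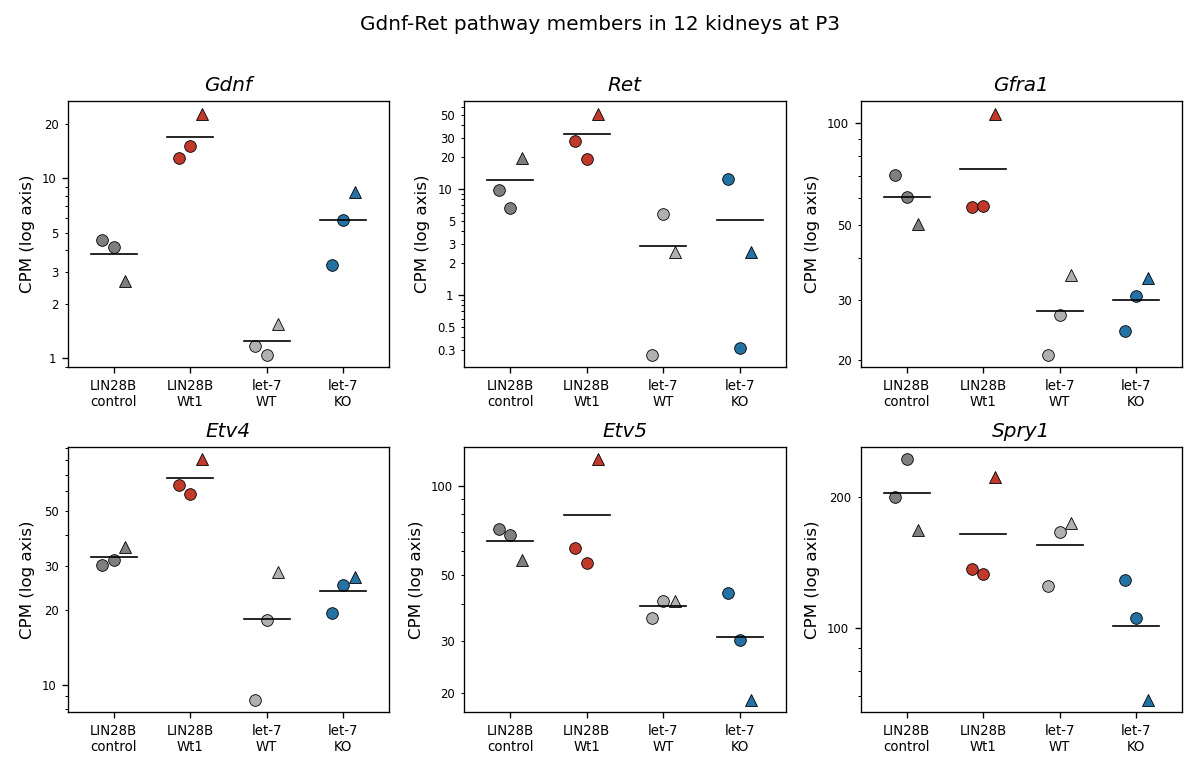
Level of each member in CPM (log axis) in the 12 kidneys, by group. Circles are litter 1, triangles litter 2 and bars the group means. *Gdnf* and *Etv4* in the LIN28B Wt1 kidneys lie above all their controls, and *Gdnf* in the let-7 KO kidneys lies above all WT kidneys.

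In LIN28B Wt1 kidneys the ligand *Gdnf* and the transcription factor *Etv4* rose, and the other 4 members did not pass the test. *Gdnf* (chr15:7810846-7837575, plus strand, GRCm38) was at 4.56, 4.18 and 2.68 CPM in the control kidneys and at 12.9, 15.2 and 22.9 CPM in the LIN28B Wt1 kidneys. Every LIN28B Wt1 kidney was above every control, in both litters. The difference was 4.48-fold, a log2 fold change of 2.16 (SE 0.345, adjusted p = 0.0212 in edgeR's quasi-likelihood test). Of all 15793 genes tested, 1.23% passed an adjusted p below 0.05, 0.462% did so with a higher level, and 10.3% had every LIN28B Wt1 kidney above every control. When litter entered the fit as a replicate block, *Gdnf* had a log2 fold change of 2.14 and its adjusted p was 0.0549, above the threshold, so that 1 member, *Etv4*, was called in place of 2. The call was also lost without control kidney 1, 2 or 3 (adjusted p = 0.103, 0.139 and 0.0805) or without LIN28B Wt1 kidney 2 (adjusted p = 0.0531). In whole kidneys, a change in the number of cells of a type and a change in RNA per cell cannot be told apart.

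Of 10 tested markers of the cap mesenchyme, which makes GDNF, 5 rose and none fell, with a median log2 fold change of 1.19 against -0.02 for all genes. Of the 5 that did not pass, *Meox1* and *Uncx* were at 0.83 and 0.70 on the log2 scale, and *Tmem100*, *Dpf3* and *Itga8* were below 0, at -0.67 (adjusted p = 0.129), -0.27 and -0.09. *Six2*, a transcription factor that keeps nephron progenitors undifferentiated, went from between 10.2 and 14.9 CPM to between 108.2 and 165.9 CPM (log2 fold change 3.35, SE 0.237, adjusted p = 0.000797 in edgeR). *Cited1*, a transcriptional coregulator of the same cells, rose by 3.33 and *Crym* by 1.56 on the log2 scale. The summed level of the list was between 552.2 and 740.3 CPM in the LIN28B Wt1 kidneys and between 311.8 and 321.1 CPM in the controls. Its part in the higher level of *Gdnf* was not tested.

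Among 21 tested genes that promote, limit or place *Gdnf* expression or its reception, 3 passed with a higher level and none with a lower one (median log2 fold change 0.14). Of all genes tested 0.462% passed with a higher level. All 3 called regulators are also among the 5 called cap mesenchyme markers. They were *Six2*, *Eya1*, a coactivator needed for *Gdnf* expression (log2 fold change 2.04, adjusted p = 0.0185), and *Osr1*, a transcription factor of the early nephric mesenchyme (1.63, adjusted p = 0.0176). *Eya1* was between 29.3 and 54.6 CPM in LIN28B Wt1 kidneys and between 6.73 and 12.9 CPM in controls. At an unadjusted p below 0.01 in edgeR, 4 regulators were higher and 3 lower. Those not called, named after their values were seen, were *Robo2*, which limits the *Gdnf* domain, *Six4*, *Npnt* and *Pax8*. Their log2 fold changes were 0.97, -1.55, -0.68 and -0.56 (adjusted p = 0.0912, 0.0722, 0.063 and 0.133). None of the 5 tested relatives of the ligand and co-receptor passed. The closest was *Nrtn*, the ligand neurturin, which had between 15.9 and 26.3 CPM against between 7.77 and 14.3 CPM (log2 fold change 1.06, unadjusted p = 0.00547, adjusted p = 0.109 in edgeR). *Artn*, the ligand artemin, was at -1.38 on the log2 scale (adjusted p = 0.325).

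**Figure D2:**
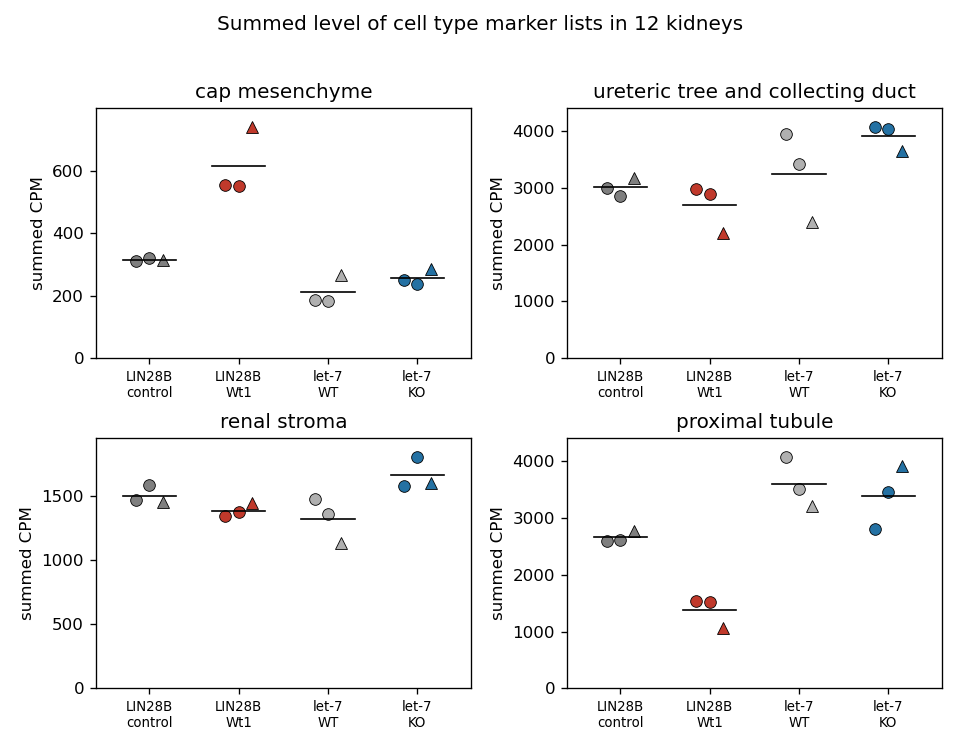
Summed CPM of the marker genes of 4 cell types in the 12 kidneys, by group, with circles for litter 1, triangles for litter 2 and bars for group means. The cap mesenchyme sum was between 552.2 and 740.3 CPM in LIN28B Wt1 kidneys, above the controls, while the sum of the ureteric tree and collecting duct was between 2202 and 2974 CPM and overlapped theirs.

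The receptor did not pass the test. *Ret* (chr6:118151745-118197718, minus strand) was at 9.75, 6.63 and 19.8 CPM in the controls and at 28.5, 19.4 and 51.6 CPM in the LIN28B Wt1 kidneys. The ranges overlapped at control kidney 3, from litter 2. Within each litter every LIN28B Wt1 kidney was above every control. The difference was 2.77-fold (log2 fold change 1.47, SE 0.452, unadjusted p = 0.00922, adjusted p = 0.131 in edgeR), with an adjusted p of 0.0513 under the litter block and of 0.0148 in DESeq2. *Ret* was thus 1 of 3 members, with *Gdnf* and *Etv4*, that were higher at the study's threshold of an unadjusted p below 0.01, which 3.25% of all genes met with a higher level.

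The co-receptor *Gfra1* (chr19:58235604-58455909, minus strand) was at 70.5, 60.4 and 50.4 CPM in the controls and at 56.6, 56.9 and 106.9 CPM in the LIN28B Wt1 kidneys. Both kidneys of litter 1 were below their controls, and kidney 3 was above. Its log2 fold change was 0.29 (SE 0.265, adjusted p = 0.636 in edgeR) and turned to -0.10 without LIN28B Wt1 kidney 3. With each kidney's transcript-length slope as a covariate it was 0.50 (adjusted p = 0.0475), and those slopes, the change of log2 level per doubling of transcript length, were -0.09, -0.08 and 0.09 in the 3 LIN28B Wt1 kidneys and 0.09, 0.04 and -0.04 in the controls.

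No marker of the ureteric tree and collecting duct, the epithelium whose tips express *Ret*, passed the test among 14, and their summed level overlapped between the groups (2202 to 2974 CPM against 2844 to 3171 CPM). The sum is not one of tip cells, as the collecting duct gene *Aqp2* alone was between 621 and 1201 CPM against between 962.6 and 1261 CPM. The member of the list with the smallest p, *Calb1*, a calcium-binding protein, was between 323.4 and 405.1 CPM against between 527.6 and 683.4 CPM (log2 fold change -0.73, adjusted p = 0.0573). Which cells its level came from was not tested. *Ret* is also expressed in nerve and adrenal chromaffin cells. The summed level of 8 neural and Schwann cell markers was between 0.823 and 1.70 CPM in LIN28B Wt1 kidneys and between 1.10 and 2.67 CPM in controls. That of 9 adrenal genes was between 7.37 and 9.67 CPM against between 2.32 and 4.64 CPM. Of the 4 tested genes in that list 1 was called, *Pnmt*, the enzyme that makes adrenaline, at between 2.45 and 3.42 CPM in the LIN28B Wt1 kidneys and at 0 counts in all 3 controls. *Pnmt* thus added to the adrenal sum of every LIN28B Wt1 kidney and of no control, and it lies within 10 Mb of *Col1a1*. The sums of LIN28B Wt1 kidneys 1, 2 and 3 were 9.67, 7.37 and 7.93 CPM, of which *Pnmt* held 3.42, 3.14 and 2.45 CPM. *Star*, of the same list, overlapped between the groups (2.39 to 4.89 CPM against 1.70 to 2.47 CPM). *Th* and *Dbh*, the preceding enzymes of catecholamine synthesis, had at most 39 and 54 counts in any kidney and were at 0 in 9 and 7 of the 12. The part of these cells in the level of *Ret* was not tested. Of 23 adaptors and kinases that carry the RET signal, 1 rose, the GTPase gene *Nras* (128.1 to 136.5 CPM against 80.5 to 85.3 CPM, log2 fold change 0.68, adjusted p = 0.0399, and 0.0807 under the litter block), and the median log2 fold change of the list was 0.00.

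Of the pair of ETS transcription factors only *Etv4* passed the test. *Etv4* (chr11:101769742-101785371, minus strand) was at 30.4, 31.8 and 35.7 CPM in the controls and at 63.9, 58.5 and 80.9 CPM in the LIN28B Wt1 kidneys. The groups did not overlap, and the controls spanned a range of 1.18-fold. The level was 2.08-fold higher (log2 fold change 1.06, SE 0.181, adjusted p = 0.0291 in edgeR), and the replicate block left it called (adjusted p = 0.0394). The call was lost when any kidney other than LIN28B Wt1 kidney 3 was left out (adjusted p from 0.0507 to 0.200) and in a fit of all 12 kidneys (adjusted p = 0.135), with log2 fold changes between 0.90 and 1.17 whichever kidney was left out.

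*Etv4* lies on the chromosome of the transgene, 6.82 Mb from *Col1a1*. Within 10 Mb of *Col1a1*, 5 of 301 genes tested (1.66%) passed the adjusted threshold, against 1.23% of all genes. The 5 were *Etv4*, *Fzd2*, *G6pc*, *Igf2bp1* and *Pnmt*, a window and genes chosen after their values were seen. The part of DNA linked to the transgene in the level of *Etv4* was not tested. The genes most like *Etv4* over the 12 kidneys were *Rspo1*, *Eya1* and *Tomm34* (Pearson correlation 0.95 for each). *Eya1*, a called cap mesenchyme marker, was at 0.82 around the group means. The summed level of the cap mesenchyme list was 552.2 to 740.3 CPM in LIN28B Wt1 kidneys and 311.8 to 321.1 CPM in controls. Whether the higher level of *Etv4* came from tip cells or from the cap mesenchyme was not tested.

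*Etv5* (chr16:22381309-22439719, minus strand) was at 71.1, 68.4 and 56.2 CPM in the controls and at 61.5, 54.8 and 122.9 CPM in the LIN28B Wt1 kidneys. As for *Gfra1*, the 2 kidneys of litter 1 were below their controls and kidney 3 was above. The log2 fold change was 0.30 (SE 0.290, adjusted p = 0.660 in edgeR) and became -0.17 without LIN28B Wt1 kidney 3. The difference between the *Etv4* and the *Etv5* fold changes was not tested.

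The inhibitor *Spry1* (chr3:37639947-37644598, plus strand) was at 200.0, 244.4 and 168.2 CPM in the controls and at 137.1, 133.2 and 222.5 CPM in the LIN28B Wt1 kidneys. Here too litter 1 was lower and kidney 3 of litter 2 higher than the controls of the same litter. The log2 fold change was -0.31 (SE 0.226, adjusted p = 0.528 in edgeR). Without LIN28B Wt1 kidney 3 it was -0.60 with an adjusted p of 0.0340, past the threshold. *Gfra1*, *Etv5* and *Spry1* were thus lower than the littermate controls in litter 1 and higher in litter 2, which holds 1 kidney per group, whereas *Gdnf*, *Ret* and *Etv4* were higher in both.

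Of 10 genes of the ureteric tip that depend on or act with this signal, none passed, and their median log2 fold change was 0.00. The smallest p were those of *Lhx1*, a homeobox transcription factor, at between 45.7 and 53.5 CPM against between 56.1 and 84.6 CPM (log2 fold change -0.51, adjusted p = 0.180 in edgeR), and of *Met*, the receptor of hepatocyte growth factor, at -0.39 (adjusted p = 0.237). *Wnt11*, the tip ligand that sustains *Gdnf* in the mesenchyme, was between 75.7 and 91.7 CPM in the controls and between 81.4 and 107.1 CPM in the LIN28B Wt1 kidneys and did not pass (adjusted p = 0.653). It is named because it closes this loop, after its values were seen. None of 8 other feedback inhibitors of ERK signalling passed (median log2 fold change 0.20), and *Dusp5* and *Spred2* had the smallest p among them (log2 fold changes of 0.72 and -0.82, adjusted p = 0.382 and 0.499). None of 8 FGF ligands and receptors, the parallel receptor tyrosine kinase input, passed either. *Fgf8* was at 0.56 (adjusted p = 0.219) and *Fgf10* at 0.83 (adjusted p = 0.368) on the log2 scale. *Alx1*, 1 of 9 stromal markers tested, fell by 0.73 (adjusted p = 0.0491, and 0.0947 under the litter block), and the summed stromal level was between 1337 and 1438 CPM against between 1452 and 1581 CPM. Among 8 proximal tubule markers *Slc34a1*, the phosphate transporter, fell by 1.196 on the log2 scale, and none of the 8 had a log2 fold change above 0. Their summed level was between 1057 and 1532 CPM in LIN28B Wt1 kidneys and between 2598 and 2777 CPM in the controls, without overlap, and its part in the levels of the members was not tested. Of the 9 kidney markers, *Slc12a3* and *Umod*, genes of the distal tubule and the thick ascending limb, fell by 1.95 and 1.22. Of these called list genes, *Six2*, *Cited1*, *Slc34a1* and *Slc12a3* passed whichever kidney was left out, while *Crym* lost its call in 2 of 6 such fits, *Eya1* in 3, *Osr1* and *Pnmt* in 4, and *Nras*, *Alx1* and *Umod* in 5.

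**Figure D3:**
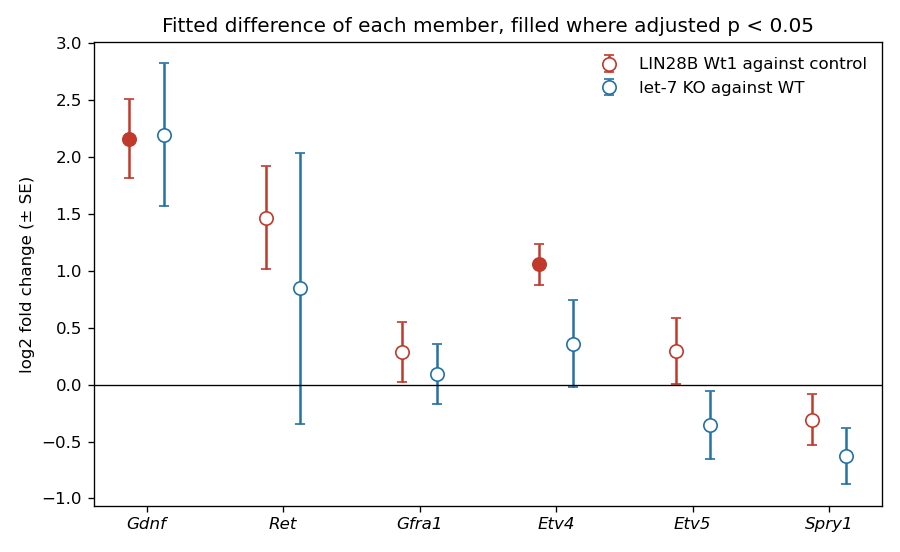
Fitted log2 fold change of each member in both models, with bars for the standard error and filled points where the adjusted p was below 0.05. *Gdnf* and *Etv4* are filled in LIN28B Wt1 kidneys. The estimates for *Gdnf* are alike in size in both models, 2.16 and 2.20, with a wider error in let-7 KO kidneys (0.625 against 0.345).

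In let-7 KO kidneys no member passed the test, and *Gdnf* was the only member whose groups did not overlap. *Gdnf* was at 1.18, 1.05 and 1.54 CPM in the WT kidneys, on 57 to 91 counts, and at 3.31, 5.85 and 8.44 CPM in the let-7 KO kidneys. All 3 let-7 KO kidneys were above all 3 WT kidneys. The difference was 4.59-fold (log2 fold change 2.20, SE 0.625, unadjusted p = 0.00520, adjusted p = 0.362 in edgeR). Of all 15500 genes tested, 0.0194% passed the adjusted threshold, 7.87% had every let-7 KO kidney above every WT kidney, and 1.10% had a higher level at an unadjusted p below 0.01, as *Gdnf* did. Over all genes 1681 had an unadjusted p below 0.05, 2 of them members, *Gdnf* and *Spry1*. DESeq2 called none of the members and gave 5 of them, *Gdnf* included, no adjusted p. Under the litter block *Gdnf* was at 2.16 on the log2 scale (adjusted p = 0.498), and without 1 kidney at a time it was between 1.85 and 2.48.

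None of the 10 cap mesenchyme markers passed the test in let-7 KO kidneys. Of them 9 had a log2 fold change above 0, and their median was 0.57 against -0.02 for all genes. The summed level was between 238.3 and 284.3 CPM in let-7 KO kidneys and between 182.9 and 265.0 CPM in WT kidneys. *Tmem100* and *Cited1* had the smallest p in this list (log2 fold changes of 1.14 and 1.12, adjusted p = 0.362 and 0.379). *Six2* was at 9.97, 8.22 and 19.1 CPM in let-7 KO kidneys and at 2.59, 7.37 and 9.18 CPM in WT kidneys, and its log2 fold change of 0.94 did not pass (adjusted p = 0.541). Among the regulators of *Gdnf* none of 21 passed. *Robo2*, the receptor that with its ligand SLIT2 limits the *Gdnf* domain, was between 9.97 and 21.3 CPM against between 23.2 and 32.2 CPM (log2 fold change -0.83, adjusted p = 0.393), and *Pax8* was at -0.49 (adjusted p = 0.429). In LIN28B Wt1 kidneys *Robo2* was instead between 38.9 and 58.1 CPM against between 16.7 and 27.9 CPM. Its log2 fold change there was 0.97 and did not pass (adjusted p = 0.0912 in edgeR). The difference between the models did not pass for *Robo2* (adjusted p = 0.351 in edgeR). Of the relatives of the ligand and co-receptor none of 5 passed in let-7 KO kidneys, with *Nrtn* at 0.81 (adjusted p = 0.477) and *Gfra4* at 0.66 (adjusted p = 0.555).

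*Ret* varied more between kidneys of a group than between the groups. It was at 0.273, 5.80 and 2.55 CPM in the WT kidneys and at 12.6, 0.317 and 2.56 CPM in the let-7 KO kidneys. WT kidney 1 and let-7 KO kidney 2 held 16 and 17 counts, and the range within a group was 21.3-fold and 39.7-fold. The log2 fold change of 0.85 had an SE of 1.19 (adjusted p = 0.839 in edgeR), and without let-7 KO kidney 1 it was -1.03. In WT kidney 1 and let-7 KO kidney 2 the ureteric tree and collecting duct list summed to 3942 and 4037 CPM. That sum does not measure the tip cells that carry RET. The collecting duct gene *Aqp2* alone was between 629.4 and 1766 CPM in WT and between 1690 and 2100 CPM in let-7 KO kidneys. *Sox9*, a transcription factor of the ureteric tip, was at its lowest level of the 6 let-7 kidneys in WT kidney 1 and let-7 KO kidney 2, at 16.9 and 17.6 CPM against between 30.5 and 41.2 CPM in the other 4. It is among the genes most like *Ret* and was named after its values were seen. Other tip genes differed, with *Wnt11* at 84.5 and 142.3 CPM against between 76.3 and 120.6 CPM in the other 4. *Lhx1* was at 18.9 and 36.99 CPM against between 22.4 and 52.4 CPM. The part of tip cell content in the level of *Ret* was not tested. *Gfra1* was at 20.7, 27.2 and 35.7 CPM in the WT kidneys and at 24.4, 30.98 and 34.9 CPM in the let-7 KO kidneys (log2 fold change 0.09, SE 0.265, adjusted p = 0.931). None of 14 ureteric markers passed. *Krt18* and *Calb1* had the smallest p, with log2 fold changes of 0.87 and -0.88 (adjusted p = 0.362 for both). The ureteric sum was between 3635 and 4071 CPM against between 2388 and 3942 CPM. The neural sum was between 0.877 and 2.73 CPM against between 1.99 and 4.28 CPM, and the adrenal sum between 3.93 and 5.32 CPM against between 2.90 and 5.90 CPM. None of 23 adaptors and kinases passed, and *Hras* and *Map2k2* had the smallest p, at 0.49 and 0.51 on the log2 scale (adjusted p = 0.416 and 0.428).

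*Etv4* was at 8.67, 18.2 and 28.4 CPM in the WT kidneys and at 19.4, 25.2 and 27.2 CPM in the let-7 KO kidneys, a log2 fold change of 0.36 (SE 0.384, adjusted p = 0.776 in edgeR). *Etv5* was at 35.8, 40.9 and 40.9 CPM and at 43.6, 30.1 and 18.9 CPM, a log2 fold change of -0.35 (SE 0.299, adjusted p = 0.703). *Spry1* was at 124.9, 166.0 and 174.3 CPM in the WT kidneys and at 129.0, 105.7 and 68.4 CPM in the let-7 KO kidneys. All 3 members overlapped between the groups. *Spry1* had the smallest p after *Gdnf* (log2 fold change -0.63, SE 0.247, unadjusted p = 0.0279, adjusted p = 0.402 in edgeR). let-7 KO kidney 3 was the lowest kidney for both *Etv5* and *Spry1*, and it also had the lowest transcript-length slope, -0.14, against slopes of 0.05 and -0.10 in the other let-7 KO kidneys and between -0.05 and 0.17 in the WT kidneys. With that slope as a covariate the log2 fold change of *Spry1* was -0.43 and that of *Etv5* was -0.10.

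None of 8 other feedback inhibitors passed the test in let-7 KO kidneys. Of them 7 had a log2 fold change below 0 and 1, *Spry2*, was at 0.51, and their median was -0.54 against -0.02 for all genes. *Dusp4*, a phosphatase that inactivates ERK, was at 13.9, 10.7 and 15.8 CPM in the WT kidneys and at 4.55, 1.86 and 2.59 CPM in the let-7 KO kidneys (log2 fold change -2.17, SE 0.448, unadjusted p = 0.000598, adjusted p = 0.275 in edgeR). *Spred2*, an inhibitor of RAF activation, was at 9.97, 11.6 and 12.4 CPM and at 6.66, 4.90 and 3.37 CPM (log2 fold change -1.19, adjusted p = 0.375). Neither gene overlapped between the groups. The share of all genes with every let-7 KO kidney below every WT kidney is not given here. In the opposite direction it was 7.87%. The summed level of the list was between 125.6 and 199.9 CPM in let-7 KO kidneys and between 177.7 and 268.4 CPM in WT kidneys, so that the sums overlapped.

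Of the 10 tip genes none passed in let-7 KO kidneys. *Emx2*, a homeobox gene of the ureteric epithelium, was between 38.6 and 61.7 CPM against between 65.1 and 75.3 CPM (log2 fold change -0.48, adjusted p = 0.462), and *Met* was at -0.36 (adjusted p = 0.638), which turned to 0.04 with the transcript-length slope as a covariate. None of 7 tested FGF genes passed, with *Fgf8* at 1.01 (adjusted p = 0.478) and *Fgfrl1* at -0.24 (adjusted p = 0.762). The stromal, proximal tubule and kidney lists had no call among 9, 8 and 9 genes. Their leading genes by p were *Col1a1* at 0.62 and *Tbx18* at 1.02, *Slc5a12* at -0.95 and *Slc5a2* at -0.998, and *Slc12a3* at -0.59 and *Pax8* at -0.49 on the log2 scale.

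**Figure D4:**
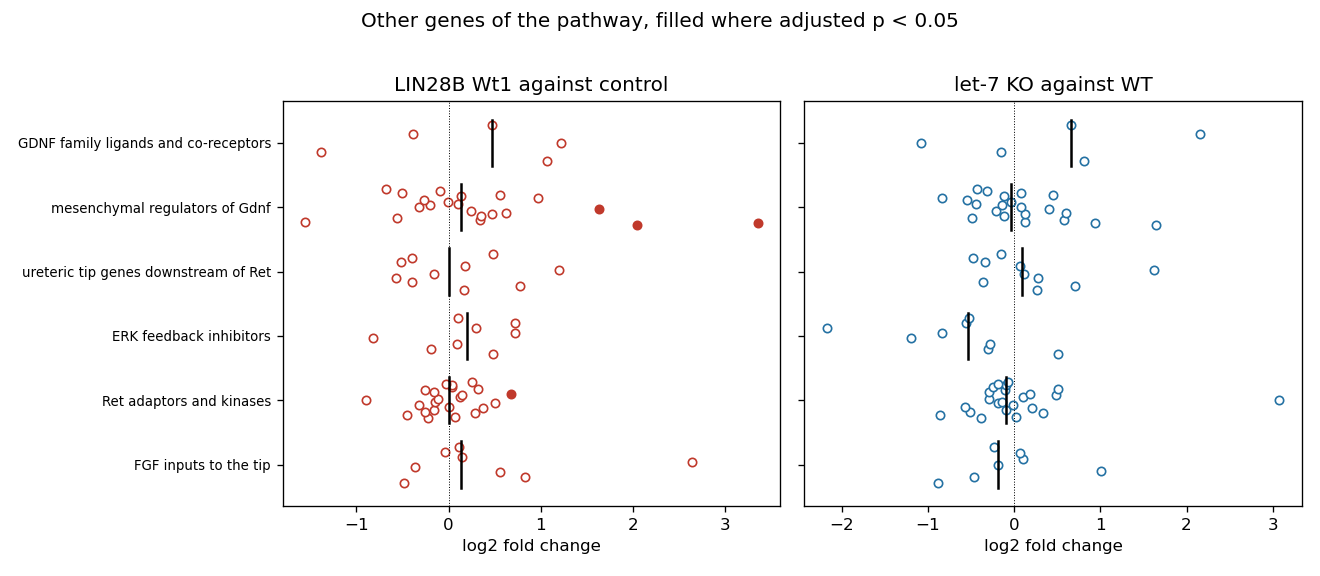
Log2 fold change of each tested gene in 6 lists around the pathway, in LIN28B Wt1 (left) and let-7 KO kidneys (right). Vertical bars are list medians and filled points had an adjusted p below 0.05. The filled genes on the left are *Six2*, *Eya1*, *Osr1* and *Nras*, none is filled on the right, and the ERK feedback inhibitors on the right have a median of -0.54.

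The difference between the 2 models was tested directly in a single fit of all 12 kidneys, since *Gdnf* and *Etv4* passed in only 1 of them. No member differed (0 of 6 at an adjusted p below 0.05 in edgeR, 0 at an unadjusted p below 0.05 and 0 in DESeq2), and 0.00602% of 16598 genes did. For *Gdnf* the LIN28B effect minus the let-7 effect was -0.06 on the log2 scale (SE 0.567). For *Etv4* it was 0.68 (SE 0.452), for *Etv5* 0.63 (SE 0.436), for *Ret* 0.61 (SE 1.37), for *Spry1* 0.30 (SE 0.353) and for *Gfra1* 0.17 (SE 0.385). With standard errors of at least 0.353, these values do not show that the effects were alike.

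The levels in the 2 control groups, let-7 WT kidneys and LIN28B controls, were compared in the same fit. The let-7 WT kidneys were below all LIN28B controls for 5 of the 6 members, all but *Spry1*, and 10.1% of all 16598 genes lay below in this way. The lower level was 3.03-fold for *Gdnf* (log2 fold change -1.60, SE 0.422, adjusted p = 0.132 in edgeR), 4.20-fold for *Ret* (-2.07, SE 1.01, adjusted p = 0.552), 2.17-fold for *Gfra1* (-1.12, SE 0.275, adjusted p = 0.101), 1.77-fold for *Etv4* (-0.82, SE 0.321, adjusted p = 0.401) and 1.66-fold for *Etv5* (-0.73, SE 0.310, adjusted p = 0.454). *Spry1* was at -0.40 (SE 0.250, adjusted p = 0.700). No member passed the adjusted threshold, which 0.627% of all genes did. An unadjusted p below 0.05 in edgeR was met by 4 members and by 1590 of all 16598 genes. DESeq2 called 2 members, *Gdnf* (adjusted p = 0.0107) and *Gfra1* (adjusted p = 0.00733). The share of all genes that DESeq2 called is not given here. *Gfra1* was also called in edgeR when LIN28B Wt1 kidney 3, of neither control group, was left out of the fit (adjusted p = 0.0359, over 17036 genes tested in place of 16598). Strain, colony and experiment cannot be told apart in this comparison. The same holds for doxycycline exposure and transgene alleles, which the labels do not give for the LIN28B controls. In the order of group means, the let-7 KO level of *Gdnf* (5.87 ± 2.57 CPM, SD, n = 3) lay above that of the LIN28B controls (3.81 ± 0.990 CPM) with overlapping ranges, and the LIN28B Wt1 level (16.99 ± 5.22 CPM) lay above both without overlap.

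**Figure D5:**
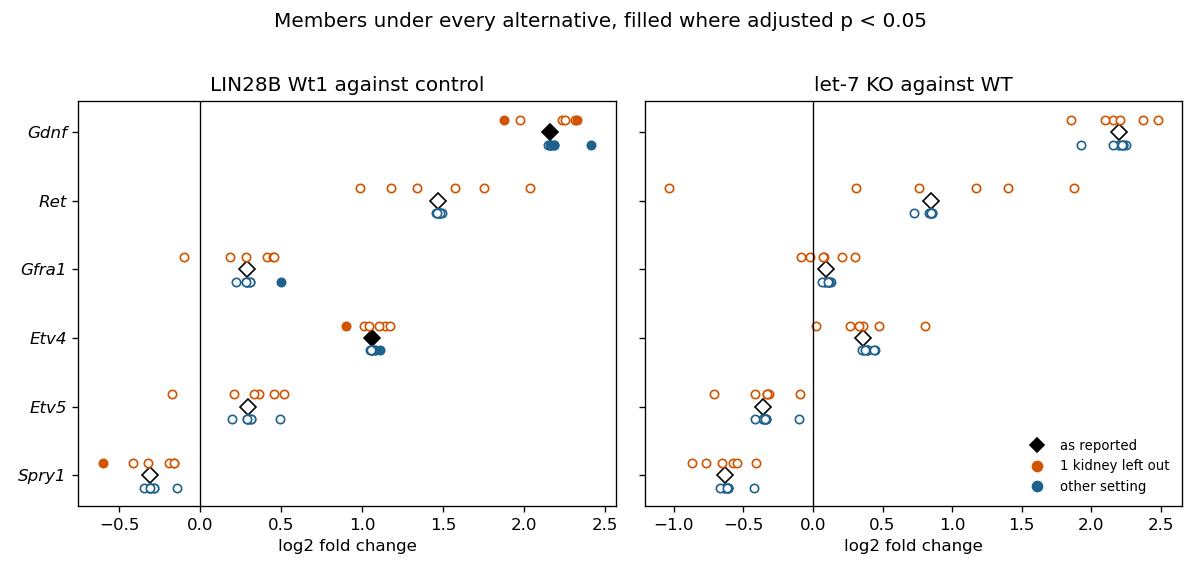
Log2 fold change of each member as reported (diamonds), with 1 kidney left out (orange) and under the other settings (blue), filled where the adjusted p was below 0.05 and open otherwise, also where DESeq2 gave none, for LIN28B Wt1 (left) and let-7 KO kidneys (right). The estimates for *Gdnf* stay between 1.88 and 2.42 on the left while their fill changes, and *Ret* on the right runs from -1.03 to 1.88.

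Across the 12 kidneys the members did not form a single pattern. The closest pair were *Gfra1* and *Etv4*, with a Pearson correlation of log2 CPM of 0.87, followed by *Etv5* and *Spry1* (0.85) and *Gdnf* and *Etv4* (0.83). Around the group means the order changed, with *Etv5* and *Spry1* at 0.93, *Gdnf* and *Gfra1* at 0.80, and *Gdnf* and *Etv4* at 0.39. *Gdnf* and its receptor *Ret* were at 0.52 over the 12 kidneys and at -0.31 around the group means. These values describe kidneys that share groups, litters and library preparation and carry no test.

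Among 14064 genes with a mean of at least 1 CPM, those most like *Gdnf* over the 12 kidneys were *Rbmxl1* (Pearson correlation 0.96), *Fzd2* (0.94) and *3110082I17Rik* (0.93). Around the group means these fell to 0.39, 0.60 and 0.44. *Ret* was most like *Dctd* (0.94), *Mdn1* (0.93) and *Sox9* (0.92), a transcription factor of the ureteric tip, and *Gfra1* most like *Fgfr1* (0.96), *Notch2* (0.94) and *Aurkb* (0.94). *Etv4* was most like *Rspo1* (0.95), *Eya1* (0.95) and *Tomm34* (0.95). *Etv5* was most like *Ccna2* (0.97), *Bub1b* (0.97) and *Aaas* (0.97), the first of which encodes a cyclin of the S and G2 phases and the second a spindle checkpoint kinase. *Spry1* was most like *Emx2* (0.96), *2810403A07Rik* (0.94) and *Isoc1* (0.94).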

How the data were processed

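Libraries were made from total RNA of each kidney with a low-input SMARTer kit and sequenced on an Illumina HiSeq. The authors deposited raw counts per gene symbol, 1 table per kidney. The submitters' processing notes name cutadapt, TopHat2 2.0.9, Bowtie2, SAMtools 0.1.19, HTSeq and build mm10, without options. Whether counting used strand is not given in the sources used here, so overlapping and antisense genes are uncertain.

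The 6 kidneys of each model formed a fit of their own in edgeR 4.0.16, run in R 4.3.3, with TMM factors, filterByExpr (minimum count 10, minimum total 15) and the quasi-likelihood test, adjusted by Benjamini-Hochberg over all genes tested. The difference of the models and the comparison of the control groups used 1 fit of all 12 kidneys. Standard errors are the absolute log2 fold change over √F. CPM are TMM-scaled over all 12 kidneys, and likeness used a prior count of 2. DESeq2 1.42.0 and other settings were alternatives. Scripts were tested on simulated counts.

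The litter numbers of the labels pair littermates. The mean correlation of deviations from the group means was -0.039 (LIN28B) and -0.0012 (let-7) within a litter, against 0.048 and 0.0016 between litters.

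The members and gene lists were chosen with earlier results of these data known. Some genes of these lists are not reported here and are left out of their counts and sums. Named were all members, per list the called genes (at most 4 with the smallest p) or else the 2 with the smallest p, and the 3 genes most like each member, unless stated. Positions are from GENCODE M21 (GRCm38), in which 94.5% of symbols had a transcript length. Sequences and promoter windows are from RefSeq.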

Additional observations from a re-analysis of the deposited data

How the results depend on the processing

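The number of members called in LIN28B Wt1 kidneys, 2, was 1 with litter as a replicate block, 1 in a single fit of all 12 kidneys, 3 in DESeq2, 3 with the transcript-length covariate, 3 at an unadjusted p below 0.01 and between 0 and 3 with 1 kidney left out, where 3 were called without LIN28B Wt1 kidney 3 (*Spry1* in addition). In let-7 KO kidneys 0 members were called, and 1 at an unadjusted p below 0.01. Between the control groups 0 were called, 2 in DESeq2, 2 at an unadjusted p below 0.01 and between 0 and 1 with 1 kidney left out. Apart from the unadjusted threshold within each model, the share of all genes called under each alternative is not given here. These counts thus do not set the members apart from other genes. The block ended the call of *Gdnf*, *Nras* and *Alx1* and changed no other call. It could not be fitted between the control groups, whose litters are not shared, so that no paired analysis was possible there.

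Direction turned with 1 kidney left out for the log2 fold changes of *Gfra1* (-0.10 to 0.45) and *Etv5* (-0.17 to 0.52) in the LIN28B model, of *Ret* (-1.03 to 1.88), *Gfra1* (-0.083 to 0.31), *Chga* (-1.80 to 0.33) and *Star* (-0.84 to 0.11) in the let-7 model, and for the difference between the models of *Gdnf* (-0.35 to 0.31), *Ret* (-0.41 to 2.49) and *Gfra1* (-0.20 to 0.35). The cause was not tested. Of the other settings only the transcript-length covariate turned a direction, that of *Met* in the let-7 model (0.043). Of the other values for single genes, 471 kept their side of the threshold, 9 lost it and 13 gained it, and 19 had no adjusted p in DESeq2.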
